A study of Mus musculus with 2 samples.

Results

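The 57 genes described here encode mouse chromatin remodellers, bromodomain proteins and protein deacetylases, out of 19937 genes read on the arrays. They were chosen by symbol, among probe sets that the platform annotation pairs with 1 gene: symbols beginning with Smarca to Smarce, Arid1 to Arid5 or Hdac, the symbols Chd, Brd and Sirt followed by a single figure, and Pbrm1. These genes had 93 probe sets, and each gene is represented by its probe set with the highest mean. The rule uses symbols and no measured value, but it was written with earlier results of these data known.

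Both samples were Langerhans cells, the antigen-presenting cells of the epidermis, sorted as Langerin-positive and Epcam-positive cells. They came from Il34LacZ/LacZ mice, with LacZ in both copies of Il34, and from Il34+/LacZ mice, with LacZ in 1 copy. The protein encoded by Il34, IL-34, signals through the CSF1 receptor. Both genotypes were 8 to 12 weeks old and received ultraviolet light for 30 min before cells were sorted 21 days later, so neither wild-type nor unexposed cells are part of the comparison. Each genotype was read on 1 array, and the labels do not say how many animals gave the RNA. No test between the genotypes is possible, and every value below is a single reading without replicate error.

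Chromatin remodellers are ATP-driven machines that slide, evict or exchange nucleosomes. The SWI/SNF, ISWI and CHD families differ in their ATPase and in the subunits that steer it to the genome. Bromodomains bind acetylated lysines on histones. The zinc-dependent HDAC enzymes and the NAD-dependent sirtuins remove such acetyl marks, and in myeloid cells these activities together set which enhancers and inflammatory genes can be used.

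Readings are in arbitrary intensity units. Differences are Il34LacZ/LacZ minus Il34+/LacZ on the log2(intensity + 16) scale, and folds are taken on that scale, on which changes of dim genes come out too small. The floor is 48.7 units, the median reading of the 2 arrays together, and a gene was used if its higher reading reached it. Where the dimmer reading was below the floor, the fold is a lower bound computed against the floor. Because the difference between the arrays varied with the level of a gene, each gene was also set against genes of the same level by subtracting a loess trend, and this value is called the relative difference. The only error the files hold is the disagreement between probe sets of 1 gene, with a pooled SD of 0.63 on the log2 scale (1.55-fold) over 614 genes as deposited and 0.69 for relative differences. The pooled SD applies to single genes, not to medians of lists, and covers probe noise and isoforms, not animals or sorts. The median SD of a gene was lower, at 0.38 as deposited, so 1 pooled SD is a wide band.

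The identity of the sort was read from marker lists. Of 10 Langerhans cell markers, 9 were at or above the floor on both arrays, and their relative differences had a median of 0.20. As deposited, 8 of the 9 read lower in Il34LacZ/LacZ (88.9%, beside 56.3% of all genes), with a median of -0.32. At least 1.5-fold lower were 3 (33.3%, near the 29.8% of all genes): Cd207, Csf1r and Ly75. Cd207, which encodes Langerin, read 1852.0 in Il34LacZ/LacZ and 3153.0 in Il34+/LacZ, and Csf1r 1510.7 and 2507.3. Epcam read higher, at 707.7 and 632.9. Il34 itself read 64.4 in Il34LacZ/LacZ and 39.4 in Il34+/LacZ, which checks nothing, as Langerhans cells are not its main source. T cell markers were also far above the floor: the 6 measured ones read 537.3 to 2081.7 in Il34LacZ/LacZ and 743.9 to 2664.1 in Il34+/LacZ. The 11 keratinocyte markers summed to 829.1 units in Il34LacZ/LacZ and 4907.5 in Il34+/LacZ. Lower by 1.5-fold or more were 9 of the 11 (81.8%, beside 29.8% of all genes). Markers of macrophages and monocytes (11 measured) summed to 3598.6 units in Il34LacZ/LacZ and 2472.7 in Il34+/LacZ, but they were split. Of 10 that reached the floor, 4 were at least 1.5-fold higher (40%, beside 15.9% of all genes) and 2 lower (20%, beside 29.8%). Pf4 read 975.3 in Il34LacZ/LacZ and 148.1 in Il34+/LacZ, whereas Lyz2 read 573.3 and 958.4. The 14 cell cycle genes summed to 2909.9 in Il34LacZ/LacZ and 5351.8 in Il34+/LacZ. Of 8 neutrophil markers, 2 were below the floor in Il34LacZ/LacZ and 5 in Il34+/LacZ, with sums of 1693.9 in Il34LacZ/LacZ and 691.7 in Il34+/LacZ. Most of the former sum came from S100a8 (552.1 in Il34LacZ/LacZ, 71.9 in Il34+/LacZ) and S100a9 (698.6 and 103.2). Mmp9 went the other way, at 190.9 in Il34LacZ/LacZ and 380.2 in Il34+/LacZ. The 10 fibroblast and endothelial markers read 10.5 to 112.0 in Il34LacZ/LacZ and 7.65 to 136.7 in Il34+/LacZ. Their sums were 688.0 in Il34LacZ/LacZ and 461.8 in Il34+/LacZ. Of the 6 that reached the floor, 4 were higher by 1.5-fold or more as measured (66.7%, beside 15.9% of all genes). For 2 of these 4, the reading in Il34+/LacZ was below the floor. Melanocyte, mast cell and B cell markers (9 measured) lay at 12.7 to 86.5 in Il34LacZ/LacZ and 9.23 to 58.9 in Il34+/LacZ. The part of any of these cells in the readings below was not tested. In such a sort, fewer cells of a type and less RNA per cell cannot be told apart.

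Most remodeller and deacetylase genes read lower in Il34LacZ/LacZ. Most lay within 1 pooled probe set SD (0.69) of their level, a band wider than the SD over all genes (0.64). The PBAF subunit gene Pbrm1 was the exception in size, and Hdac1, Arid4b, Brd8 and Chd1 were the next lowest among genes well above the floor in Il34+/LacZ, with Smarcal1. Of the 57 genes, 55 reached the floor: 49 on both arrays, 3 in Il34+/LacZ alone and 3 in Il34LacZ/LacZ alone. The ISWI ATPase gene Smarca1 (14.3 in Il34LacZ/LacZ, 7.53 in Il34+/LacZ) and Hdac9 (44.4 in Il34LacZ/LacZ, 30.1 in Il34+/LacZ) were below it on both. As deposited, 44 of 55 read lower in Il34LacZ/LacZ, or 80.0%, against 56.3% of all 12843 genes at or above the floor. At least 1.5-fold lower were 23 of 55, or 41.8%, against a background of 29.8%, and 1, Smarcd3, was as far apart in the higher direction against a background of 15.9%. The median difference was -0.50, beside -0.16 for all genes. The background was also restricted to the 3686 genes inside the interquartile range of these genes' levels. Of these, 69.4% read lower, 37.0% at least 1.5-fold lower and 9.93% at least 1.5-fold higher, with a median of -0.36. The 23 lower genes became 10 after quantile normalization of the arrays and 31 after centring each on its median, so the as-deposited count depends on how the arrays are scaled.

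Set against genes of the same level, the number of low genes was no longer above the background. At least 1.5-fold lower by the relative difference were 8 of 55, or 14.5%, against 18.4% of all genes. At least 1.5-fold higher were 2, or 3.64%, against 13.9%. These were Hdac7 and Smarce1, and the other probe sets of Smarce1 did not reach 1.5-fold. Below the trend lay 34 of 55, or 61.8%, beside 47.9% of all genes. The share was 52.3% of the genes inside the interquartile range of these genes' levels. The median relative difference was -0.19, beside 0.03 for all genes and -0.04 for genes inside that range. The median over all 57 genes, with no floor, was also -0.19. With genes ranked by their difference inside 20 equal-sized bins of level, 13 of the 55 lay at or below the 25th percentile of their bin, 20 between the 25th and 50th, 20 between the 50th and 75th and 2 above the 75th. Relative differences of 48 genes were within 1 probe set SD of their level. The other 7 were all lower in Il34LacZ/LacZ, and were Pbrm1, Arid4b, Brd8, Smarcad1, Hdac1, Smarcal1 and Chd1. The SD of the relative difference was 0.50 over the 55 genes and 0.39 without Pbrm1. It was 0.64 over all genes and 0.68 over genes inside the interquartile range of these genes' levels. Both are below the probe set SD of 0.69, and the share of all genes within that SD was not counted. A place within it is therefore no trait of these genes.

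**Figure D1:**
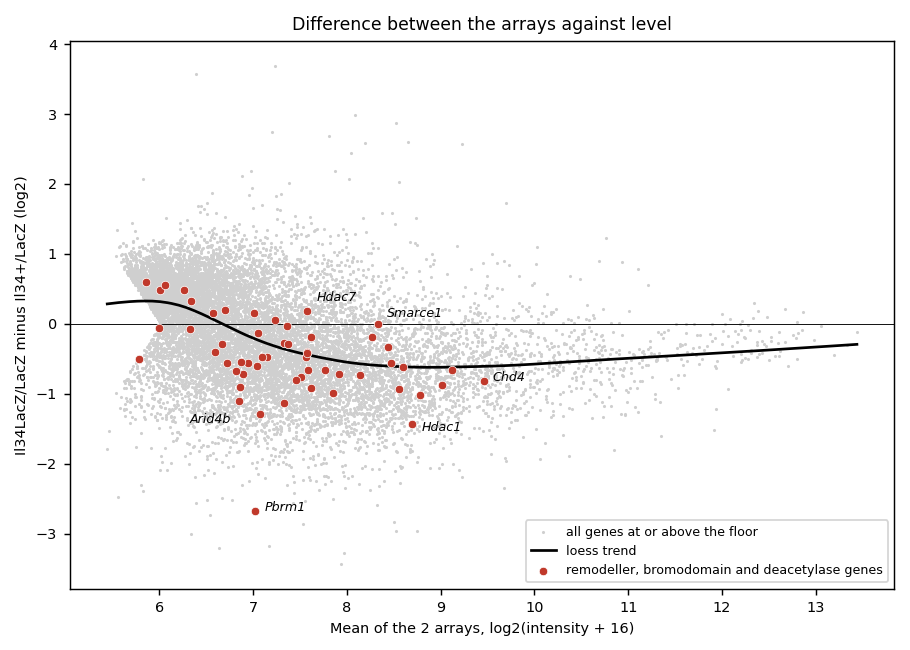
Difference between the arrays (log2, Il34LacZ/LacZ minus Il34+/LacZ) against the mean level of a gene on the log2(intensity + 16) scale, 1 array per genotype. Grey points are the 12843 genes at or above the floor, red points the 55 genes described here, and the line is the loess trend; most red points lie near the line, and Pbrm1 lies lowest at -2.67.

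**Figure D2:**
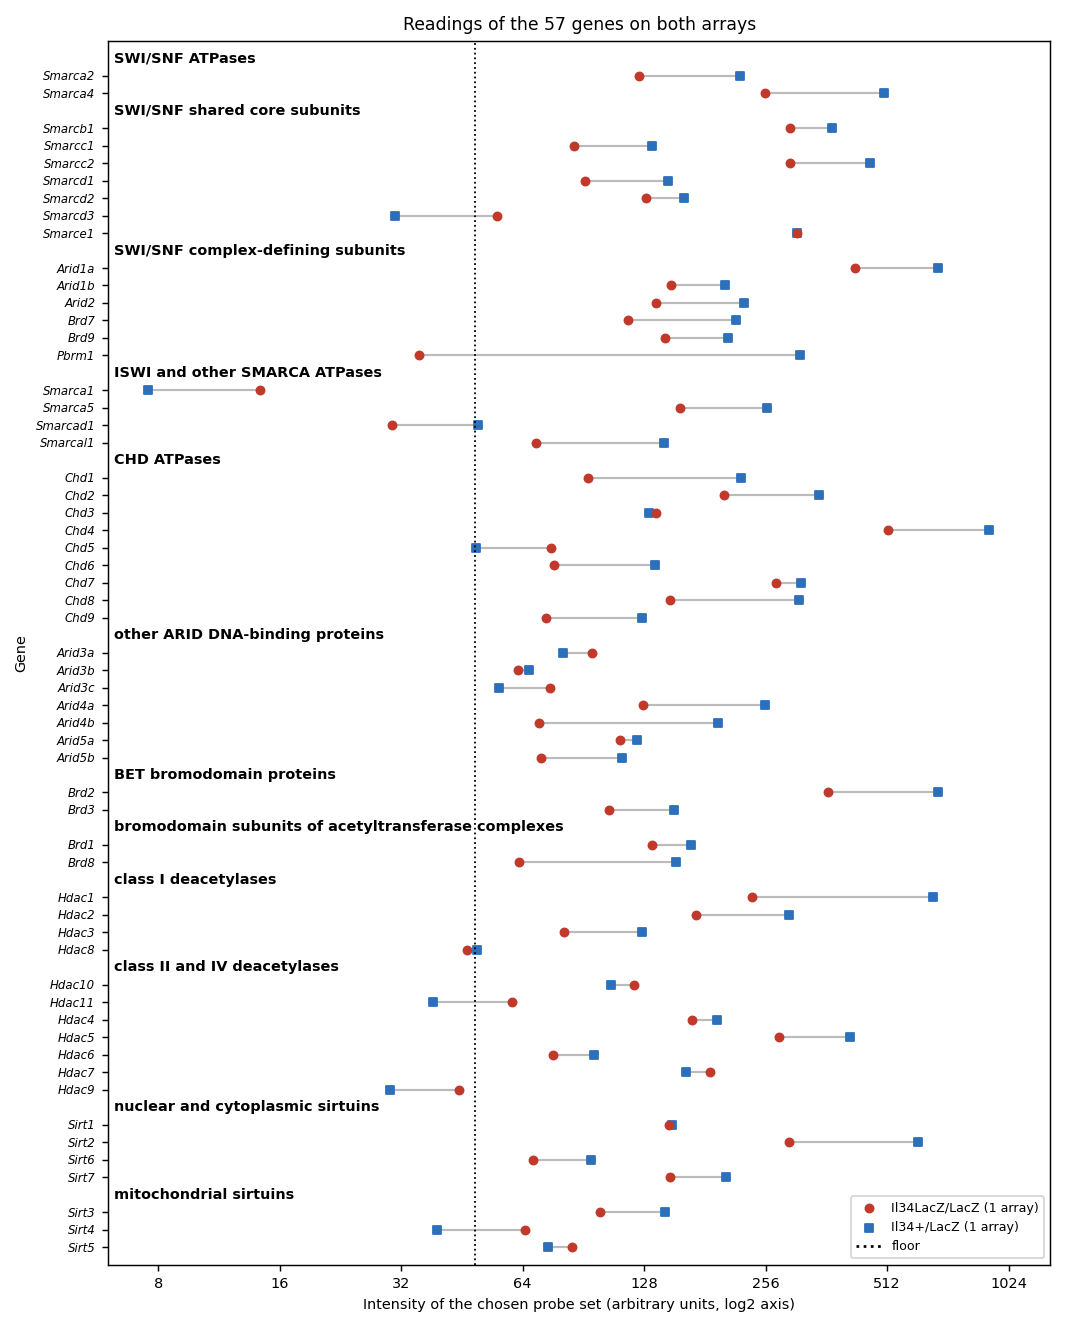
Intensity of the 57 genes on a log2 axis, in groups by role, with Il34LacZ/LacZ as red circles and Il34+/LacZ as blue squares (1 array each); the dotted line is the floor of 48.7. Red lies left of blue for most genes, by the widest gap for Pbrm1 (35.3 in Il34LacZ/LacZ, 311.3 in Il34+/LacZ).

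Pbrm1 had by far the widest gap of the 57 genes. It encodes polybromo (BAF180), a subunit with several bromodomains that defines the PBAF form of SWI/SNF. Pbrm1 lies on chromosome 14, from 31019138 to 31121592 in GRCm38.p6, and had 3 probe sets. Its chosen probe set read 35.3 in Il34LacZ/LacZ, against 311.3 in Il34+/LacZ, at least 5.06-fold lower. The other 2 probe sets read 45.4 and 45.0 in Il34LacZ/LacZ, against 155.6 and 109.8 in Il34+/LacZ, at least 2.65-fold and at least 1.94-fold lower. All 3 were below the floor in Il34LacZ/LacZ and well above it in Il34+/LacZ, and the probe set with the highest mean also gave the widest gap. The relative difference of Pbrm1 was -2.46, and it ran from -2.46 to -1.19 over the 3 probe sets. Since its readings in Il34LacZ/LacZ are below the floor, these values are as measured, and the bound stands for the size.

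The other subunits of the PBAF form did not share so wide a gap. Arid2, its DNA-binding subunit, read 136.8 in Il34LacZ/LacZ and 226.1 in Il34+/LacZ, a difference of -0.66 and a relative difference of -0.22. Brd7, its second bromodomain subunit, read 116.9 in Il34LacZ/LacZ and 216.2 in Il34+/LacZ, with differences of -0.80 and, relative to level, -0.40. Both relative differences were smaller than the probe set SD of 0.69. Phf10, a PBAF subunit outside the genes chosen by symbol, read 71.1 in Il34LacZ/LacZ and 138.5 in Il34+/LacZ, 1.77-fold lower. Its relative difference of -0.705 lay just beyond that SD. Arid1a and Arid1b, the alternative DNA-binding subunits of the canonical BAF form, had relative differences of -0.04 and 0.03: Arid1a read 426.2 in Il34LacZ/LacZ and 683.4 in Il34+/LacZ. Brd9, which marks the non-canonical form, read 144.5 in Il34LacZ/LacZ and 206.3 in Il34+/LacZ, with a relative difference of -0.03. Apart from Pbrm1 and Phf10, these subunits lay within the probe set SD of their level.

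Promoter windows are printed for 5 genes low or high in relative difference, so that their start sites can be compared. They were taken among genes with a single window in the table and a reading at or above the floor in Il34+/LacZ. Windows run from 250 bases before to 50 bases after a RefSeq start (GRCm38.p6), 5′ to 3′ on the gene's strand. For Smarcal1 and Arid4b this start lies inside the gene as listed, which begins at 72536695 and 14063609. Capitals mark GGGCGG, the core bound by SP1 and KLF factors, CCAAT, the NF-Y box, and GCATGCGC, part of the NRF1 site, on either strand. Pbrm1 is at chr14:31018888-31019187 (+ strand), Arid4b at chr13:14063534-14063833 (+), Smarcal1 at chr1:72583001-72583300 (+), Smarcb1 at chr10:75921565-75921864 (- strand) and Sirt1 at chr10:63338986-63339285 (-).
Pbrm1: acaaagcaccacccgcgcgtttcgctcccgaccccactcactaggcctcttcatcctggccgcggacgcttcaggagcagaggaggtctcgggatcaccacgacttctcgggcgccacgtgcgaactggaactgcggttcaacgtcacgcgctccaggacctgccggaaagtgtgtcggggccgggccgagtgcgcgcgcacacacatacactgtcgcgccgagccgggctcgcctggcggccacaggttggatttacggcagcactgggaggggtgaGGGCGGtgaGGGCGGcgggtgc
Arid4b: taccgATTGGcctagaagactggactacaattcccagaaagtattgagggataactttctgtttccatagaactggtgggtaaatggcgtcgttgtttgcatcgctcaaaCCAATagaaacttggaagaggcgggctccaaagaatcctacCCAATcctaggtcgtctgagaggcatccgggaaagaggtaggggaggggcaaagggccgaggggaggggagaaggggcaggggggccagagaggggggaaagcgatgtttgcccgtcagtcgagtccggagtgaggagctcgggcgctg
Smarcal1: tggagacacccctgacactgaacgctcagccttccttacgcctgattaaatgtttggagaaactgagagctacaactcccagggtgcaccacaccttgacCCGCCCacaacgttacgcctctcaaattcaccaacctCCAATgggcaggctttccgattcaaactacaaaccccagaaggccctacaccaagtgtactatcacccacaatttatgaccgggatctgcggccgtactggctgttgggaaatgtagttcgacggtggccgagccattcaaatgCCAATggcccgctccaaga
Smarcb1: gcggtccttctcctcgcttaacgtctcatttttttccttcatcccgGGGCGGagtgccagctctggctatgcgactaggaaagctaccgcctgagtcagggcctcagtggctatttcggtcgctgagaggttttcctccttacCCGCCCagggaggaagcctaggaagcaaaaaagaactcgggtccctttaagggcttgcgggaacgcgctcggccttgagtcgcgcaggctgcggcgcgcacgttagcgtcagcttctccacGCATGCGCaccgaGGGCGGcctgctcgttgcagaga
Sirt1: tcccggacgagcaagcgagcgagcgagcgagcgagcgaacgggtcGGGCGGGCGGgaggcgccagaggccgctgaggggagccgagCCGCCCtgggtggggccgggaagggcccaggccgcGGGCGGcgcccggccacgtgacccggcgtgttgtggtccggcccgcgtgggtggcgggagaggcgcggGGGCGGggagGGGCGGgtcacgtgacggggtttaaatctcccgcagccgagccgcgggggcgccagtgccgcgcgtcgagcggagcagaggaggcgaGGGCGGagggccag

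The Pbrm1 window held 2 GGGCGG matches, both after the start, and no CCAAT. The Arid4b window held 3 CCAAT matches and no GGGCGG. Sirt1, the highest of the 5 in relative difference, held 7 GGGCGG matches, of which a pair overlap, and no CCAAT. Smarcal1 held 2 CCAAT and 1 GGGCGG, and Smarcb1 3 GGGCGG and 1 GCATGCGC, which the other 4 windows lack. None of the 5 held the ETS core CCGGAAG, the YY1 core AAGATGGCG or TATAAA on either strand. Windows were found for 45 of the 57 genes, 60 windows in all. Of these, 73.3% held GGGCGG and 30.0% CCAAT, beside 35.7% and 37.4% of all 32851 windows in the table. CCGGAAG was in 16.7%, GCATGCGC in 11.7%, AAGATGGCG in 3.33% and TATAAA in 6.67%, beside 8.86%, 2.71%, 1.40% and 13.6% of all windows. The median GC content was 65.5% in these windows and 52.7% in all windows. GGGCGG consists of G and C alone. These matches describe letters in the windows and were not set against binding.

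Both SWI/SNF ATPases read lower, while the shared core subunits ran from lower to higher. Smarca4 (BRG1), one of the alternative motor subunits, read 255.3 in Il34LacZ/LacZ and 503.6 in Il34+/LacZ, 1.92-fold lower, and Smarca2 (BRM), the other, read 124.3 in Il34LacZ/LacZ and 221.4 in Il34+/LacZ, 1.69-fold lower. Relative to genes of the same level both were within the probe set SD, at -0.33 and -0.34. Among the 7 shared core subunits, 2 were at least 1.5-fold lower as deposited (28.6%, near the 29.8% of all genes). None was by the relative difference, beside 18.4% of all genes. The scaffold genes Smarcc1 and Smarcc2 had relative differences of -0.39 and -0.01, and Smarcb1, the subunit lost in rhabdoid tumours in humans, 0.27. Smarcd1, an adaptor to transcription factors, read 91.3 in Il34LacZ/LacZ and 146.6 in Il34+/LacZ, with a relative difference of -0.37. Its relatives Smarcd2, required in mice for neutrophil development, and Smarcd3, the muscle and heart form, had 0.08 and 0.27. Smarcd3 read 55.1 in Il34LacZ/LacZ and 30.9 in Il34+/LacZ, so it reached the floor only in Il34LacZ/LacZ, where it was at least 1.10-fold higher. Smarce1, an HMG-box subunit, is uncertain. Its chosen probe set read 305.6 in Il34LacZ/LacZ and 305.3 in Il34+/LacZ, with a relative difference of 0.60. The other 2 had differences of -0.25 and -0.58, and relative differences of 0.30 and -0.30. Over all 15 SWI/SNF genes the median was -0.60 as deposited and -0.04 relative to level.

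Remodeller ATPases were also counted together, including the 2 of SWI/SNF. Of the 14 SWI/SNF, ISWI, CHD and related ATPases that reached the floor, 10 were at least 1.5-fold lower as deposited and 4 by the relative difference, or 71.4% and 28.6%, beside the 29.8% and 18.4% of all genes. Their median relative difference was -0.33, beside 0.03 for all genes, and 11 of the 14 lay below the trend. Among the 4, Smarcad1 has only a bound and Chd9 just passed 1.5-fold. Smarca5, the main ISWI motor, read 157.1 in Il34LacZ/LacZ and 257.4 in Il34+/LacZ, with a relative difference of -0.17. Smarcal1, an annealing helicase that restarts stalled replication forks, read 69.1 in Il34LacZ/LacZ and 143.1 in Il34+/LacZ, 1.87-fold lower and -0.78 relative to level. Smarcad1, which acts in DNA end resection and in maintaining silent chromatin, read 30.3 in Il34LacZ/LacZ and 49.7 in Il34+/LacZ. It just passed the floor in Il34+/LacZ, so its relative difference of -0.83 comes with a bound of at least 1.01-fold only.

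Among the 9 CHD ATPases, 6 were at least 1.5-fold lower as deposited (66.7%, beside 29.8% of all genes) and 2 by the relative difference (22.2%, near the 18.4% of all genes). The medians were -0.71 and -0.20. Chd1, which spaces nucleosomes over transcribed genes, read 92.9 in Il34LacZ/LacZ and 222.0 in Il34+/LacZ, 2.19-fold lower and -0.77 relative to level. Chd9 read 73.0 in Il34LacZ/LacZ and 126.6 in Il34+/LacZ, with a relative difference of -0.59, and Chd6 and Chd8, its relatives, had -0.57 and -0.47. Chd8, a repressor of Wnt signalling, read 148.0 in Il34LacZ/LacZ and 309.5 in Il34+/LacZ. Chd4, the usual motor of the NuRD deacetylase complex, read 514.1 in Il34LacZ/LacZ and 915.4 in Il34+/LacZ, 1.76-fold lower but only -0.20 relative to level. Its alternative Chd3 read 137.0 in Il34LacZ/LacZ and 131.8 in Il34+/LacZ, with 0.37 relative to level, and the neuronal form Chd5 read 75.3 in Il34LacZ/LacZ and 49.0 in Il34+/LacZ.

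Chd7, a remodeller of developmental enhancers, showed how far probe sets of 1 gene can disagree on these arrays. It had 30 probe sets, 28 of them at or above the floor on at least 1 array. Their differences ran from -1.95 to 1.39, with a median of -0.33 and an SD of 0.75. Differences of 1.5-fold or more were seen in 10 of the 28 on the lower side and in 4 on the higher side. The chosen one read 271.7 in Il34LacZ/LacZ and 312.6 in Il34+/LacZ, with a relative difference of 0.40, while the median of the 28 was -0.14. Only Pbrm1, of all 57 genes, differed from its level by more than the lowest of these Chd7 probe sets, which had a relative difference of -1.77. Of the 93 probe sets, 2 (1 of Chd6, 1 of Chd7) had exactly the same deposited value on both arrays, as did 448 of the 34760 probe sets on the array.

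**Figure D3:**
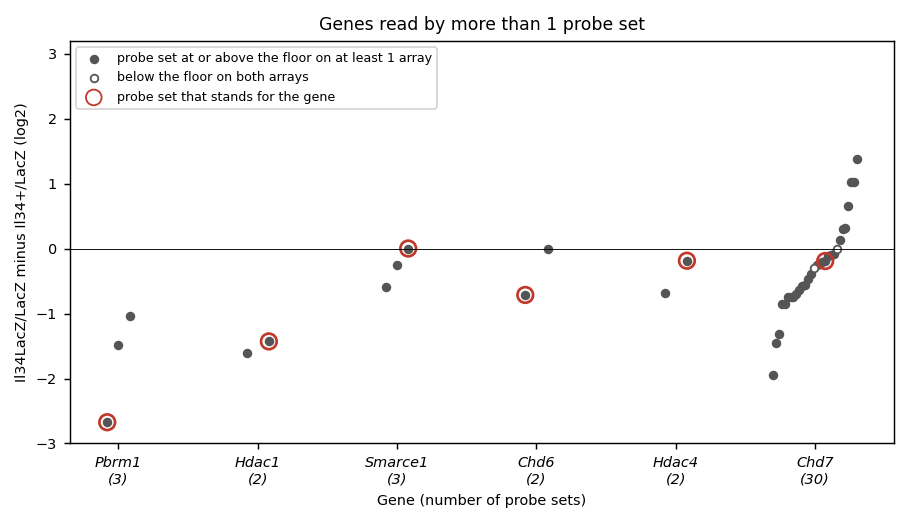
Differences (log2, Il34LacZ/LacZ minus Il34+/LacZ) of every probe set of the 6 genes with more than 1; red rings mark the probe set that stands for the gene and open points lie below the floor on both arrays. The 3 Pbrm1 and 2 Hdac1 probe sets all lie below -1, and those of Chd7 run from -1.95 to 1.39.

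Among the ARID DNA-binding proteins outside SWI/SNF, 2 of 7 (28.6%) were at least 1.5-fold lower as deposited, near the 29.8% of all genes. These were Arid4a and Arid4b, related subunits of the SIN3 deacetylase complex. Arid4b read 70.1 in Il34LacZ/LacZ and 194.9 in Il34+/LacZ, 2.45-fold lower. With a relative difference of -1.05 it was the lowest of the 57 genes after Pbrm1. Arid4a read 127.1 in Il34LacZ/LacZ and 255.1 in Il34+/LacZ, 1.89-fold lower and -0.47 relative to level, within the probe set SD. Arid5b, a regulator of fat cell and lymphoid genes, had a relative difference of -0.53 (71.0 in Il34LacZ/LacZ, 112.8 in Il34+/LacZ). Arid5a, which stabilises Il6 mRNA in mice, read 111.2 in Il34LacZ/LacZ and 122.8 in Il34+/LacZ, with 0.11 relative to level. Relative differences of Arid3a, Arid3b and Arid3c lay between -0.28 and 0.21.

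Bromodomain genes outside SWI/SNF ranged from level to low. Brd8, a subunit of the TIP60 acetyltransferase and remodelling complex, read 62.6 in Il34LacZ/LacZ and 153.4 in Il34+/LacZ, 2.15-fold lower and -0.99 relative to level. Brd1, a scaffold of MYST acetyltransferases, read 133.9 in Il34LacZ/LacZ and 167.3 in Il34+/LacZ, with a relative difference of 0.08. The BET proteins link acetylated chromatin to transcription elongation and are needed for inflammatory genes in macrophages. Brd2 read 366.1 in Il34LacZ/LacZ and 684.5 in Il34+/LacZ, 1.83-fold lower but -0.25 relative to level, and Brd3 read 104.5 in Il34LacZ/LacZ and 151.6 in Il34+/LacZ, with -0.19.

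Class I deacetylases read lower, and class II and IV deacetylases lay on both sides of 0. Hdac1, the catalytic subunit of the NuRD, SIN3 and CoREST complexes, read 237.1 in Il34LacZ/LacZ and 665.4 in Il34+/LacZ, 2.69-fold lower and -0.81 relative to level. Its second probe set read 90.0 in Il34LacZ/LacZ and 307.0 in Il34+/LacZ, a difference of -1.61, so both probe sets read lower. Hdac2, its close paralog in the same complexes, read 171.7 in Il34LacZ/LacZ and 292.2 in Il34+/LacZ, with a relative difference of -0.19. Hdac3, the enzyme of the NCoR corepressor, read 80.9 in Il34LacZ/LacZ and 126.1 in Il34+/LacZ, with -0.42. Hdac8, another nuclear class I enzyme, read 46.5 in Il34LacZ/LacZ and 49.4 in Il34+/LacZ, close to the floor. All 4 had negative relative differences, with a median of -0.40, and Hdac1 alone exceeded the probe set SD.

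Of the 6 class II and IV genes that reached the floor, none was at least 1.5-fold lower by either measure. Of all genes, 29.8% were lower as deposited and 18.4% by the relative difference, and 6 genes give a coarse share. The median relative difference was 0.22. Hdac7, a signal-responsive class IIa repressor, had the highest relative difference of the 57 genes, 0.62, just under the probe set SD. It read 186.6 in Il34LacZ/LacZ and 162.8 in Il34+/LacZ, 1.13-fold higher. Hdac10, a polyamine deacetylase, read 120.5 in Il34LacZ/LacZ and 106.1 in Il34+/LacZ, with 0.37 relative to level. The class IIa genes Hdac4 and Hdac5 had relative differences of 0.27 and 0.05. For Hdac4 the second probe set, below the floor in Il34LacZ/LacZ, gave -1.01 in place of 0.27. Hdac6, the tubulin deacetylase, read 76.1 in Il34LacZ/LacZ and 96.3 in Il34+/LacZ, with -0.29. The class IV gene Hdac11 read 60.3 in Il34LacZ/LacZ and 38.4 in Il34+/LacZ and reached the floor only in Il34LacZ/LacZ. The difference between the classes was not tested, since each gene has 1 reading per genotype.

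**Figure D4:**
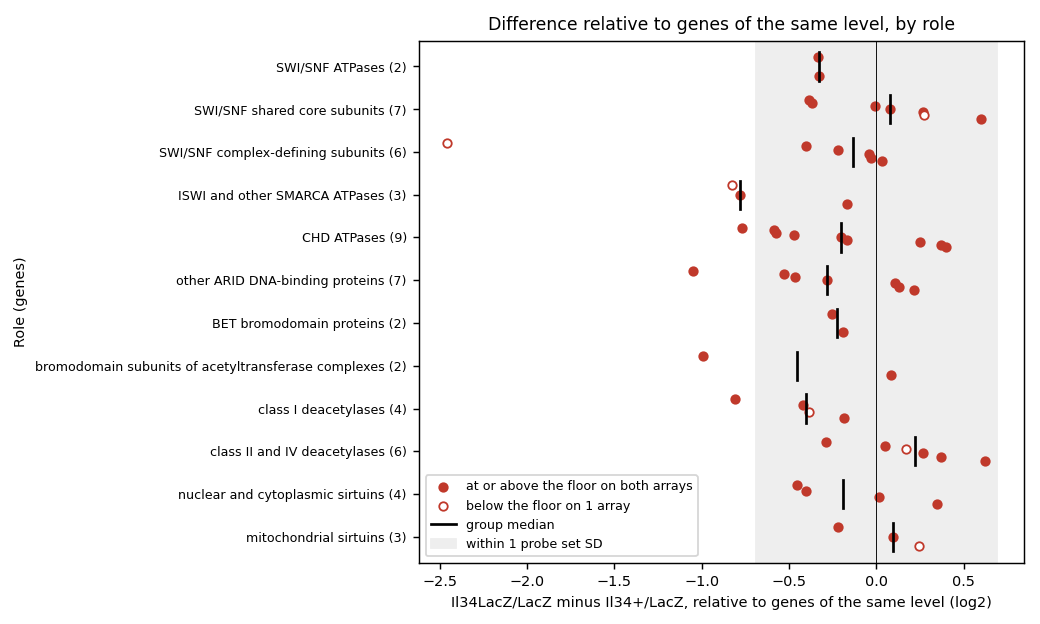
Difference relative to genes of the same level (log2, Il34LacZ/LacZ minus Il34+/LacZ) for the 55 genes at or above the floor, by role, with the number of genes in parentheses; black bars are group medians, open points were below the floor on 1 array, and the grey band is 1 probe set SD of 0.69. Pbrm1 at -2.46 lies far left of the band, and 48 of the 55 genes lie inside it.

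Sirtuins lay near their level. None of the 7 was at least 1.5-fold apart by the relative difference, beside 18.4% of all genes lower and 13.9% higher, and the median was 0.02. With 7 genes such shares are coarse. As deposited, 1 was at least 1.5-fold lower (14.3%, beside 29.8% of all genes). That gene was Sirt2, a mainly cytoplasmic deacetylase, which read 291.9 in Il34LacZ/LacZ and 609.6 in Il34+/LacZ, 2.03-fold lower but -0.40 relative to level. Sirt1, a nuclear deacetylase that restrains NF-kB, read 147.1 in Il34LacZ/LacZ and 150.0 in Il34+/LacZ, with a relative difference of 0.35. Sirt6, a nuclear enzyme of DNA repair and glycolytic genes, had -0.45 (68.0 in Il34LacZ/LacZ, 94.7 in Il34+/LacZ), and the nucleolar Sirt7 had 0.02 (148.0 in Il34LacZ/LacZ, 203.9 in Il34+/LacZ). Of the mitochondrial forms, Sirt3, the main deacetylase there, read 99.6 in Il34LacZ/LacZ and 144.5 in Il34+/LacZ, with -0.22. The desuccinylase Sirt5 read 84.5 in Il34LacZ/LacZ and 73.9 in Il34+/LacZ, with 0.09, and Sirt4 reached the floor only in Il34LacZ/LacZ (64.7 there, 39.1 in Il34+/LacZ).

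Other genes of the same complexes were read from lists chosen by function. ISWI partners had the lowest median of these lists, -1.03 as deposited and -0.51 relative to level. Of 8 that reached the floor, 6 were at least 1.5-fold lower as deposited (75%, beside 29.8% of all genes) and 4 by the relative difference (50%, beside 18.4%), none higher. They included Rsf1 (31.9 in Il34LacZ/LacZ, 103.1 in Il34+/LacZ) and the histone-fold pair Chrac1 (47.4 in Il34LacZ/LacZ, 129.8 in Il34+/LacZ) and Pole3 (62.1 in Il34LacZ/LacZ, 185.1 in Il34+/LacZ). Rsf1 and Chrac1 were below the floor in Il34LacZ/LacZ, at least 1.84-fold and at least 2.25-fold lower, and Pole3 was 2.58-fold lower, with a relative difference of -1.18. Of 15 genes of the INO80, SRCAP and TIP60 remodellers, 6 were at least 1.5-fold lower (40.0%, beside 29.8% of all genes and 37.0% at the level of the 57 genes) and none higher as deposited. By the relative difference 3 were lower (20%, near the 18.4% of all genes) and 1 higher. The lower ones included Ruvbl1, a shared helicase subunit, at -1.18 and Ino80c at -0.97. Actr5 read 19.9 in Il34LacZ/LacZ, below the floor, and 51.6 in Il34+/LacZ, so it was at least 1.04-fold lower only.

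Of 22 partners of the deacetylases in NuRD, SIN3, CoREST and NCoR, 12 were at least 1.5-fold lower (54.5%, beside 29.8% of all genes) and none higher as deposited. By the relative difference 5 were lower (22.7%, near the 18.4% of all genes) and 2 higher, with a median of -0.17. Sin3a, the scaffold to which Hdac1 and Arid4b bind, read 82.6 in Il34LacZ/LacZ and 246.9 in Il34+/LacZ, 2.67-fold lower and -1.06 relative to level. Sap18 and Rcor3, both below the floor in Il34LacZ/LacZ, were at least 1.55-fold and at least 2.05-fold lower. The lysine acetyltransferases write the marks that deacetylases remove. Of 13, 8 were lower (61.5%, beside 29.8% of all genes) and 1 higher (7.69%, beside 15.9%) as deposited. Relative to level 3 were lower (23.1%) and 2 higher (15.4%), near the 18.4% and 13.9% of all genes. Kat8 and Kat2a were high for their level, at 0.96 and 0.79, and Taf1 was low at -0.85.

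Of 16 other SWI/SNF subunits, 4 were at least 1.5-fold lower and 3 higher as deposited (25% and 18.8%, near the 29.8% and 15.9% of all genes), with a median of 0.10 relative to level. Bicral, a subunit of the non-canonical form, read 42.3 in Il34LacZ/LacZ and 166.3 in Il34+/LacZ, at least 2.82-fold lower, and Bcl7b read 62.6 in Il34LacZ/LacZ and 233.0 in Il34+/LacZ, 3.17-fold lower. Bcl11b, a zinc finger subunit that is also a defining factor of T cells, read 271.3 in Il34LacZ/LacZ and 141.3 in Il34+/LacZ, 1.83-fold higher. The 6 T cell markers summed to 7263.0 units in Il34LacZ/LacZ and 8088.4 in Il34+/LacZ, and had a median relative difference of 0.42. Of 17 Polycomb genes that reached the floor, 2 were at least 1.5-fold lower and 1 higher as deposited (11.8% and 5.88%, both under the shares of all genes). Relative to level 1 was lower and 2 higher (5.88% and 11.8%, beside 18.4% and 13.9% of all genes). Suz12, a core subunit of the methyltransferase complex, read 74.6 in Il34LacZ/LacZ and 254.4 in Il34+/LacZ, 2.99-fold lower. Pcgf1 read 139.3 in Il34LacZ/LacZ and 80.1 in Il34+/LacZ, 1.62-fold higher, and Cbx2 138.8 in Il34LacZ/LacZ and 94.5 in Il34+/LacZ, 1.40-fold higher, with relative differences of 0.86 and 0.71. Of 16 other bromodomain genes, 9 were lower (56.2%, beside 29.8% of all genes) and none higher as deposited, and 6 lower (37.5%, beside 18.4%) and 1 higher relative to level. Phip had a relative difference of -1.04, and Atad2, below the floor in Il34LacZ/LacZ, was at least 1.47-fold lower. The 14 cell cycle genes held 10 that were lower by 1.5-fold or more as deposited (71.4%, beside 29.8% of all genes). Relative to level 6 were lower (42.9%, beside 18.4%). The part of cell cycle differences in these readings was not tested.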

How the data were processed

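Gene expression was read on 2 arrays, 1 per genotype. The authors deposited processed intensity values, judged linear from their range and skew. How probes were summarised, background removed and arrays scaled is not given in the sources used here, nor are detection calls. Labelled cRNA started from 2 ng of RNA, per the labels' protocols.

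Of 34760 probe sets, the platform annotation pairs 21640 with 1 gene symbol, 1321 with several and 11799 with none. All 57 genes described here matched the RefSeq gene table (GRCm38.p6) by number and symbol. Intensities were transformed as log2(intensity + 16). The trend of the difference with level was fitted by loess (span 0.3) to all probe sets with 1 symbol. Genes named are up to 4 per role and 3 per further list with the largest relative difference, plus a fixed set of well-known members; further genes named were chosen after their values were seen. The members and lists were chosen with earlier results of these data known. The trend removal was run on simulated data built from the same trend, with noise smaller than the probe set SD and changed genes well above the floor. That run checks the computation and cannot show how accurate relative differences are on these arrays. The precision is limited by the number of arrays. Python 3.11.15, numpy 2.4.6, pandas 2.3.3, statsmodels 0.14.6 and matplotlib 3.10.9 were used.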

Additional observations from a re-analysis of the deposited data

How the results depend on the processing

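The counts and medians over the genes at or above the floor (55 as reported, and all 57 with no floor) were recomputed under 9 other settings and 2 added after the data were seen (floor on the mean of the arrays, with 52 genes, and both arrays at or above the floor, with 49). The median relative difference stayed between -0.22 and -0.15 in all of them. The as-deposited values depended on scaling: the number of genes at least 1.5-fold lower was 10 after quantile normalization and 31 after centring every array at its median, and the median was -0.24 and -0.65. Centring moved the median of all genes to -0.30 and quantile normalization to 0.03. A floor at the 75th percentile, which leaves 38 of the genes, gave a median of -0.66, and with a pseudocount of 64 it was -0.37. The number at least 1.5-fold higher as deposited, 1, was 4 with a pseudocount of 1 and 0 with a pseudocount of 64, either scaling, the raised floor and both added floors. Relative to level, the number lower was 4 with a pseudocount of 64, and the number higher was 0 with a pseudocount of 64 or a loess span of 0.6 and 1 with probe sets averaged. Of 456 values of 41 named genes under alternatives, none at least 1.5-fold apart changed sign and 5 moved by more than the probe set SD. Of these, 4 were of Pbrm1, at -1.92 as deposited and -1.69 relative to level with a pseudocount of 64, and at -1.73 and -1.70 with probe sets averaged, and 1 was Hdac4 at -0.45 relative to level with probe sets averaged. The cause was not tested. No paired analysis was possible because each genotype has 1 array. Arrays hold no count depth, and readings near the floor give bounds only.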
